A study of Mus musculus with 7 samples.

Results

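The genes described here are 10 transcripts of thermogenesis: the uncoupling protein genes Ucp1, Ucp2 and Ucp3, the brown adipocyte genes Cidea, Elovl3, Dio2 and Letmd1, and the transcriptional regulators Ppargc1a, Prdm16 and Ebf2. They were chosen by name, for their known part in heat production or in brown adipocyte identity and with earlier results of these data known, so that their counts beside the shares over all genes are descriptions. All 10 were found among the 21341 protein-coding gene names of the expression table. The table came from RNA-Seq of 7 tissues of lean mice, a panel made to see whether lncRNAs regulated in liver were enriched in that tissue. Each tissue was represented by 1 library of ribosomal RNA-depleted total RNA, so no difference below has a replicate check and no p-value was computed.

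All animals were wild-type mice (genotype wt) of the strain that the labels give as C57BL/6 and the study's text as C57BL/6N, aged 36 weeks on the diet labelled NCD, whose meaning the labels do not spell out. Of the 7 libraries, 3 were fat depots, namely interscapular brown adipose tissue (BAT), visceral (VAT) and subcutaneous (SCAT) adipose tissue, and the rest were skeletal muscle, liver, kidney and cortex. The labels do not say whether the 7 libraries came from the same animal or how many animals went into each, and no temperature, fasting or drug challenge is named for them. Levels are given as FPKM, a fragment count divided by transcript length and by the size of the library, which allows levels of different genes to be set side by side. The counts themselves are not listed, and the depth that stands behind an FPKM is therefore unknown. Each library had the markers of its labelled tissue, but transcripts of other tissues were present in the fat depots, with lymphocyte and pancreatic acinar markers in SCAT, male reproductive tract and hepatocyte markers in VAT and muscle fibre markers in BAT.

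Brown adipocytes burn fatty acids in densely packed mitochondria, and UCP1 in the inner mitochondrial membrane lets protons return to the matrix without making ATP, so that the energy is released as heat. Noradrenaline from sympathetic nerves switches this on through beta-adrenergic receptors, cAMP and protein kinase A, which free fatty acids from lipid droplets and raise transcription of Ucp1 through the coactivator PGC-1alpha (Ppargc1a). UCP2 and UCP3 are close relatives of UCP1 whose transcripts are known from many tissues and from muscle and brown fat, respectively, and they are not held to be heat producers in the same way.

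The start sites of the uncoupling protein genes and of Letmd1 are shown because the 3 uncoupling protein genes had their highest levels in different tissues, and because Letmd1, like Ucp1, was enriched in BAT. Sequences were RefSeq promoters of GRCm38.p6, each running from 250 bases before to 50 bases after an annotated start, and 7 of the 10 members had an entry. In the order printed, they cover chr8:83290098-83290397, chr7:100493108-100493407, chr7:100472741-100473040 and chr15:100468761-100469060, all on the plus strand. Capitals mark every match, on either strand, to any of 7 motifs. The TATA box was searched as TATAAA and in the variant spelled TATATA. The cAMP response element was searched in full as TGACGTCA and in its shorter form TGACG, which is contained in the full one. The others were AGGTCA, the core site of many nuclear receptors, the CCAAT box, and CCCNNGGG, the core of the site that EBF proteins bind.
Ucp1: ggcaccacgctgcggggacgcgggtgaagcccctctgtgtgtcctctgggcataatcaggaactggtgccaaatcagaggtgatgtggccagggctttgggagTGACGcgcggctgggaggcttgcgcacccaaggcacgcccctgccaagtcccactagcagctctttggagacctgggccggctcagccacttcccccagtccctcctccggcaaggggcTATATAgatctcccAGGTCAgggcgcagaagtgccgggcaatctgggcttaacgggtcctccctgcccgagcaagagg
Ucp2: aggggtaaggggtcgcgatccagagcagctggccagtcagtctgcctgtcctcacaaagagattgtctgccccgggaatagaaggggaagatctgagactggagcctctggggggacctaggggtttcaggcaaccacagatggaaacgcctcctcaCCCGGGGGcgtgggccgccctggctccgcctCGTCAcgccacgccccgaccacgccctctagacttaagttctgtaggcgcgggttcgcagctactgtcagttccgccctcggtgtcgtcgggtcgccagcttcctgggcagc
Ucp3: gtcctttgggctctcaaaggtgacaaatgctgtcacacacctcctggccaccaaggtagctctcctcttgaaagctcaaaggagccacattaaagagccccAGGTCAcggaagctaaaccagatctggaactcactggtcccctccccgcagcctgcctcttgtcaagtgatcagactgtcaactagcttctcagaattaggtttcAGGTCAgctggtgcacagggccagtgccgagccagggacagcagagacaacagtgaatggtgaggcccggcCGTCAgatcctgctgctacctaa
Letmd1: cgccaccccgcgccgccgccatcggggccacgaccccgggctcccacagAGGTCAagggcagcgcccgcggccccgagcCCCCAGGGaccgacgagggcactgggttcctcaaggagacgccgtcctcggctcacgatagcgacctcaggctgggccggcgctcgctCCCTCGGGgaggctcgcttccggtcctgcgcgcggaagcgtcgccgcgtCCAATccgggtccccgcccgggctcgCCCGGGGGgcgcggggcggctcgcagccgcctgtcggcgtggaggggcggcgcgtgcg

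The Ucp1 window held a TATATA 28 bases before the start, an AGGTCA 14 bases before it and a TGACG 147 bases before it. Over all 32851 promoters of this length, TATATA was found in 5.67%, AGGTCA in 16.3% and TGACG in 20.8%. The Ucp3 window held 2 AGGTCA matches, 149 and 44 bases before the start, and a TGACG 27 bases after it. The Ucp2 window had a TGACG and a CCCNNGGG. Letmd1 had 3 CCCNNGGG matches, in a window that was 79.0% G and C with 48 CpG pairs and an observed over expected CpG ratio of 1.03, against a median of 0.38 over all promoters. CCCNNGGG was present in 13.7% of all promoters. Ucp1 and Ucp3 had lower ratios of 0.48 and 0.22, and Ucp2 had 0.68. The full TGACGTCA, present in 1.79% of all promoters, was found in the Dio2 window 95 bases before the start and in no other member with an entry, and Dio2 also had a TATAAA 30 bases before its start. These matches are descriptions of the letters and not evidence of binding, and distal enhancers lie outside the windows.

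Ucp1 had the widest range of levels of any member. Its FPKM was 6552 in BAT, 10.6 in kidney, 2.86 in skeletal muscle, 0.324 in SCAT, 0.309 in VAT, 0.116 in cortex and 0.0108 in liver. BAT stood far above all the other libraries, kidney and muscle formed a middle step, and both white depots lay below 1 FPKM. The BAT level was 618 times that of kidney, a difference of 9.26 on the log2(FPKM + 0.1) scale, a scale that understates differences of low values. Among the 14927 protein-coding genes that reached 1 FPKM in some tissue and had a value in BAT, this was the largest difference between BAT and the highest other tissue. In level, Ucp1 ranked 3 of all protein-coding genes in BAT, after Cox8b (11478 FPKM), a cytochrome c oxidase subunit, and Fabp4 (9367 FPKM), a fatty acid carrier, which are named here because they alone lay above it.

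The Ucp1 gene lies on chromosome 8 (chr8:83290352-83298452, GRCm38, plus strand), and the table lists it at 2 loci, which share 1 merged interval and differ in strand. The strand of a locus is not written in the table and was read from the order of its rows. The locus with the higher FPKM, used above, reads as the minus strand, opposite to the annotated gene. On the annotated strand Ucp1 had 5529 FPKM in BAT, 10.03 in kidney, 1.41 in muscle, 0.258 in SCAT, 0.173 in VAT, 0.0435 in cortex and 0.0369 in liver. The tissue order was the same at the 2 loci, the BAT value differed by 1.19 times between them, and BAT over kidney was 9.09 on the log2 scale on the annotated strand. Reads of the 2 strands cannot be told apart with this table, and the sum of the loci was not used as the level of Ucp1 except as an alternative.

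The kidney and muscle levels of Ucp1 were small shares of the BAT level, 0.162% and 0.0437%. Adipocyte transcripts were present in both libraries. All 7 adipocyte markers (Adipoq, Plin1, Fabp4, Lep, Cidec, Retn and Cfd) were above 0 in kidney, with a summed level of 92.6 FPKM against 11142 in BAT, and their levels in kidney were 0.397% to 6.09% of those in BAT, with a median of 0.687%. In muscle they summed to 685 FPKM, at 1.79% to 181% of their levels in BAT, with a median of 5.49%. The part of these markers in the Ucp1 levels of kidney and muscle was not tested.

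Ucp2, which codes for a mitochondrial carrier found in many cell types including leukocytes, was above 1 FPKM in every tissue. Its FPKM was 23.9 in SCAT, 21.97 in kidney, 16.9 in VAT, 10.2 in BAT, 9.03 in muscle, 8.65 in liver and 2.21 in cortex. SCAT and kidney differed by 1.09 times, and BAT, muscle and liver lay close together, so that with 1 library each these neighbours have no settled order. Cortex was the low tissue, and SCAT exceeded it by 10.8 times. BAT had less Ucp2 than either white depot, by 0.71 (VAT) and 1.22 (SCAT) on the log2 scale. Leukocyte transcripts were unequal over the same libraries. The 8 macrophage markers summed to 150.7 FPKM in SCAT, 135 in VAT, 88.1 in BAT and 17.8 in kidney, and the 8 lymphocyte markers to 282 in SCAT and 1.51 to 16.1 in the other 6 tissues. Their part in the Ucp2 levels was not tested.

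Ucp3, the uncoupling protein gene of muscle, had its highest level there. Its FPKM was 64.1 in muscle, 25.2 in BAT, 3.54 in VAT, 2.22 in SCAT, 0.219 in cortex, 0.160 in kidney and 0.0818 in liver. Muscle and BAT were separated from the white depots, and the white depots from cortex, kidney and liver. Muscle exceeded BAT by 2.54 times, and BAT exceeded VAT by 2.80 and SCAT by 3.45 on the log2 scale. The BAT level was 39.4% of that in muscle. Skeletal muscle fibre transcripts were found in the BAT library, where 9 of 9 listed markers with a row were at 1 FPKM or more, and for the 7 with a value in every tissue the BAT level was 1.02% to 4.27% of that in muscle (median 1.66%). The part of fibre transcripts in the Ucp3 level of BAT was not tested. Ucp3 (chr7:100472990-100486432) lies 6904 bases before Ucp2 (chr7:100493337-100502020) on the same strand, and their 7-tissue profiles had a Pearson r of 0.14, given as a description over 7 tissues.

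**Figure D1:**
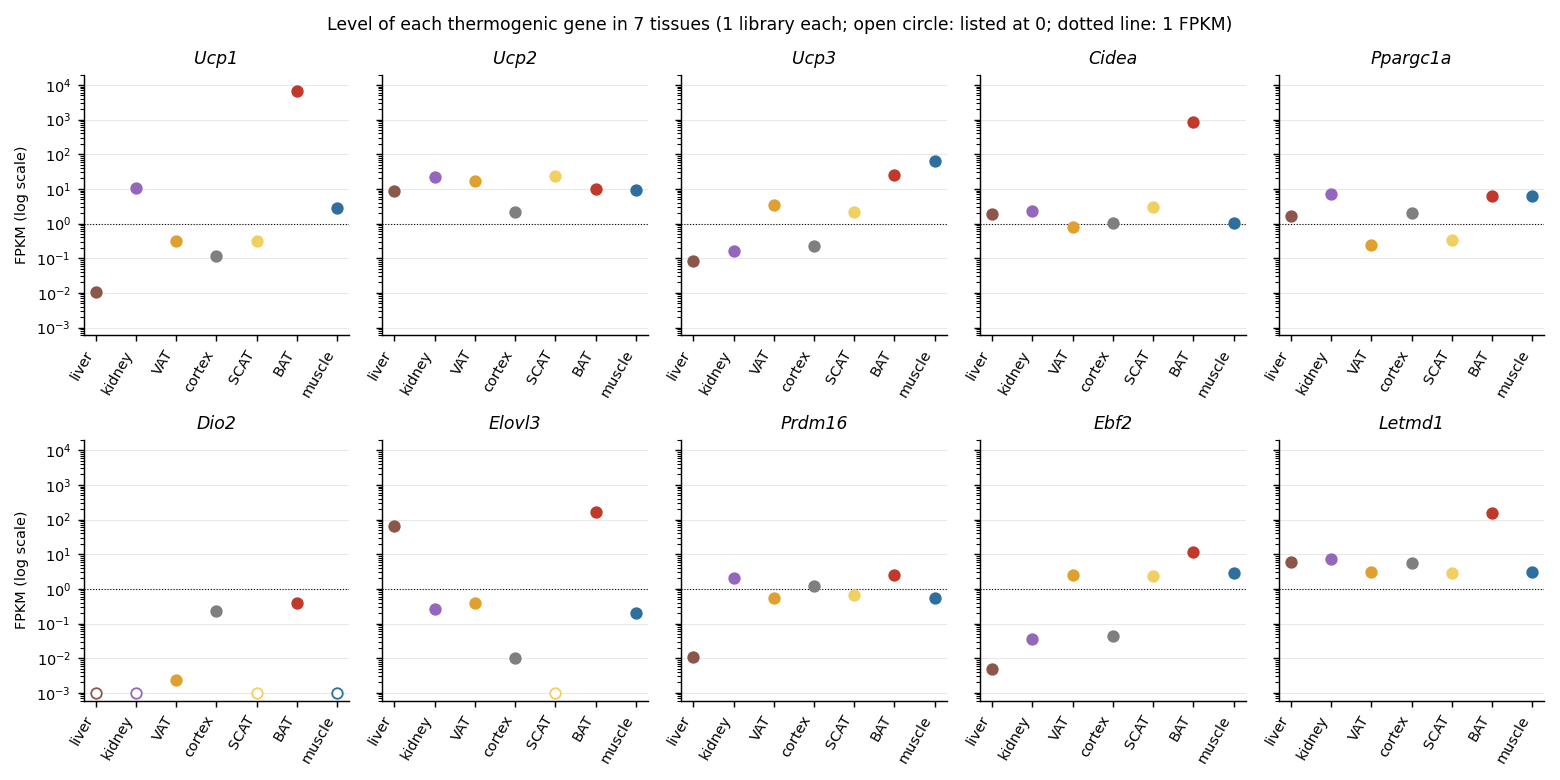
FPKM of each of the 10 genes (log axis) in the 7 tissues, 1 point per library. Open circles are tissues listed at 0 and the dotted line is 1 FPKM. Ucp1 and Cidea stand out in BAT at 6552 and 832 FPKM, Ucp2 runs from 2.21 in cortex to 23.9 in SCAT, and Ucp3 is highest in muscle at 64.1 FPKM.

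The make-up of the uncoupling protein transcripts differed in kind between tissues. Ucp1 was 99.5% of the summed FPKM of the 3 genes in BAT, where the sum was 6588 FPKM, and Ucp2 and Ucp3 were 0.156% and 0.383%. In muscle, Ucp3 was 84.3% of a sum of 76.0 FPKM. Ucp2 was the largest share in the other 5 tissues, from 67.1% in kidney to 98.9% in liver. Kidney was the tissue outside BAT with a sizeable share of Ucp1, at 32.4% of 32.7 FPKM. In VAT and SCAT, Ucp1 was 1.49% and 1.22% of the sum. With the Ucp1 locus on its annotated strand, or the sum of both loci, the Ucp1 share in BAT remained between 99.4% and 99.7%.

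**Figure D2:**
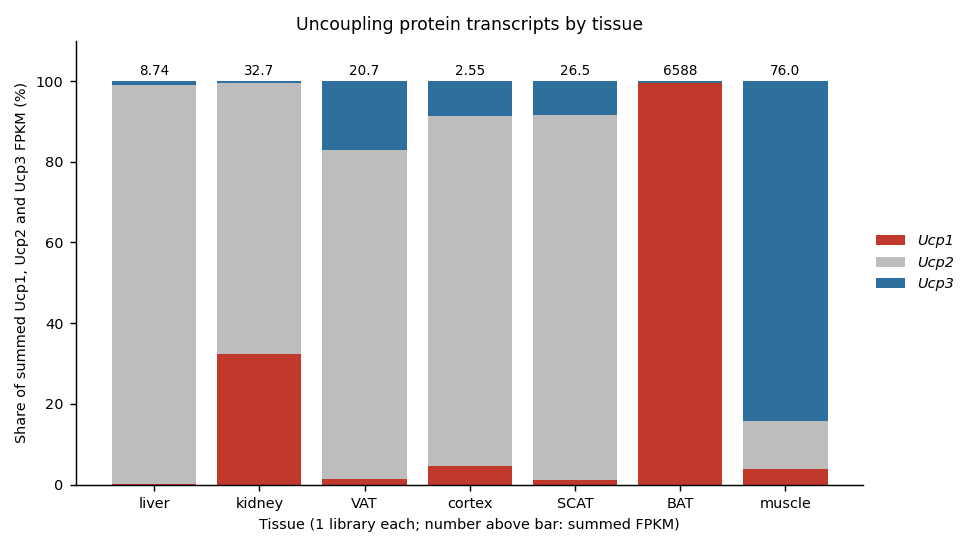
Share of Ucp1, Ucp2 and Ucp3 in their summed FPKM (bars, 0 to 100%) in each tissue, 1 library each, with the summed FPKM above each bar. Ucp1 fills the BAT bar (99.5%), Ucp3 most of the muscle bar (84.3%), and Ucp2 is the largest share in the remaining tissues.

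Cidea, which codes for a lipid droplet protein that is a marker of brown adipocytes, followed Ucp1 in its contrast. Its FPKM was 832 in BAT, 3.10 in SCAT, 2.25 in kidney, 1.88 in liver, 1.02 in cortex, 1.01 in muscle and 0.786 in VAT. The 6 other libraries lay within a narrow band, and BAT stood 268 times above SCAT, the highest of them (8.02 on the log2 scale). This was the next largest BAT difference among all protein-coding genes after Ucp1. Between the white depots Cidea was 1.85 higher in SCAT than in VAT on the log2 scale, whereas Ucp1 differed by 0.05. Cidea lies on chromosome 18 (chr18:67343604-67367785, plus strand).

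Letmd1, which codes for a mitochondrial inner membrane protein needed for brown fat thermogenesis, was the third member that was abundant in BAT and low elsewhere. Its FPKM was 155 in BAT, 7.30 in kidney, 5.94 in liver, 5.69 in cortex, 3.14 in VAT, 3.09 in muscle and 2.83 in SCAT. BAT stood 21.3 times above kidney, the next tissue, and the 6 other tissues spanned 2.83 to 7.30 FPKM. Unlike Ucp1 and Cidea, Letmd1 was above 1 FPKM in every library. Its log2 difference of 4.39 between BAT and kidney ranked 10 among all protein-coding genes. Letmd1 lies at chr15:100469023-100479164 on the plus strand.

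Elovl3, the elongase that makes very long chain fatty acids in brown fat and is also known from liver and skin, had 2 high tissues. Its FPKM was 165 in BAT and 65.6 in liver, and it was 0.391 in VAT, 0.255 in kidney, 0.208 in muscle and 0.0101 in cortex. In SCAT it was listed at 0. BAT exceeded liver by 2.51 times, which is 1.33 on the log2 scale and short of the 4-fold rule. Elovl3 was thus far higher in BAT than in the white depots and muscle, with a smaller gap to liver. The 5 hepatocyte markers with a value in every tissue summed to 12309.5 FPKM in liver, 357 in VAT and 12.5 in BAT, and their part in the Elovl3 level of VAT was not tested. It lies at chr19:46131897-46135694 on the plus strand.

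Dio2, the deiodinase that makes active thyroid hormone inside brown adipocytes, was low throughout. Its FPKM was 0.387 in BAT, 0.230 in cortex and 0.00231 in VAT, and it was listed at 0 in liver, kidney, SCAT and muscle. BAT was the highest tissue, but no tissue reached 1 FPKM, so Dio2 did not enter the counts below. The gene lies at chr12:90724552-90738438 on the minus strand.

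Ppargc1a, the coactivator of mitochondrial genes that responds to cAMP, was not a BAT-enriched transcript in this panel. Its FPKM was 7.37 in kidney, 6.28 in muscle, 6.20 in BAT, 2.05 in cortex, 1.70 in liver, 0.328 in SCAT and 0.240 in VAT. The kidney level was 119% and the muscle level 101% of that in BAT, and these 3 tissues were above the rest. BAT exceeded VAT by 4.21 and SCAT by 3.88 on the log2 scale. BAT and muscle differed by -0.02 on that scale, and by 0.07 when libraries were rescaled to a common median ratio, so that their order depends on the scaling. Ppargc1a (chr5:51454250-51567726, minus strand) had a locus on the opposite strand too, with 3.39 FPKM in kidney and 1.93 in BAT.

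Prdm16, a zinc finger regulator that steers precursors towards brown fat, was low and broad. Its FPKM was 2.59 in BAT, 2.08 in kidney, 1.19 in cortex, 0.681 in SCAT, 0.560 in VAT, 0.528 in muscle and 0.0106 in liver. BAT exceeded kidney by 1.24 times (0.30 on the log2 scale), a gap that 1 library per tissue cannot settle. Prdm16 (chr4:154316125-154636873, minus strand) was 2.03 higher in BAT than in VAT and 1.78 higher than in SCAT on the log2 scale.

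Ebf2, a transcription factor of the brown adipocyte lineage, followed adipose tissue and muscle. Its FPKM was 11.8 in BAT, 2.84 in muscle, 2.55 in VAT, 2.30 in SCAT, 0.0429 in cortex, 0.0357 in kidney and 0.00485 in liver. Muscle and the white depots lay close together, and cortex, kidney and liver were near 0. BAT exceeded muscle by 4.14 times, a log2 difference of 2.01, just past the limit of 2. The muscle level of Ebf2 was 24.2% of that in BAT. For the adipocyte markers it was 1.79% to 181% (median 5.49%), and their part in the Ebf2 level of muscle was not tested. Ebf2 lies at chr14:67233292-67430918 on the plus strand.

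A gene was counted as enriched in BAT when it had at least 1 FPKM there and stood at least 4-fold (2 on the log2 scale) above every other tissue. Of the 9 members with at least 1 FPKM in a tissue, 4 were enriched in BAT, Ucp1, Cidea, Letmd1 and Ebf2, beside 0.757% of the 14927 protein-coding genes tested. A further pair, Elovl3 and Prdm16, had their highest FPKM in BAT without reaching the 4-fold rule, so 6 of 9 members were highest in BAT, beside 15.1% of genes. No member was enriched in any other tissue, but the share over all genes was not computed for those tissues, so nothing is read from this. Leaving out a library can only keep or add a call, and without the SCAT library or the VAT library the same 4 members were enriched in BAT. Ebf2 lost the call with a pseudocount of 1 and with rescaled libraries, where its difference was 1.47.

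Against the white depots, 8 of the 9 members were at least 4-fold higher in BAT than in VAT, all but Ucp2, beside 9.84% of genes, and 7 were higher than in SCAT, all but Ucp2 and Prdm16, beside 15.6%. For Elovl3, which is listed at 0 in SCAT, the call there rests on the pseudocount of 0.1 and gives no fold. No member was 4-fold lower in BAT than in VAT or SCAT, beside 7.20% and 6.04% of genes. Against muscle, 6 members were higher in BAT (Ucp1, Cidea, Elovl3, Prdm16, Ebf2 and Letmd1), beside 6.94% of genes, and 0 were lower, beside 9.21%. Prdm16 and Ebf2 lost the call against muscle with a pseudocount of 1 or an 8-fold rule, and Prdm16 also with its loci summed. With a pseudocount of 1 they also lost the call against VAT, and Ebf2 that against SCAT. An 8-fold rule ended the calls of Ucp3, Prdm16 and Ebf2 against VAT and of Ebf2 against SCAT. Over all genes tested, the median difference was 0.52 for BAT over VAT and 0.65 for BAT over SCAT, and the differences of the members are to be read against those shifts. After rescaling to a common median ratio these medians were -0.23 and -0.20. The share of higher among all 4-fold calls then moved from 57.7% to 31.7% against VAT and from 72.1% to 40.7% against SCAT. Prdm16 and Ebf2 then stood 1.38 and 1.47 above VAT, under the limit, and Ucp1, Ucp3, Cidea, Ppargc1a, Elovl3 and Letmd1 kept the call against both depots. Ucp2 then stood at -2.02 for BAT over SCAT, past the limit, so that it became 4-fold lower in BAT, beside 10.9% of all genes under that scaling.

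**Figure D3:**
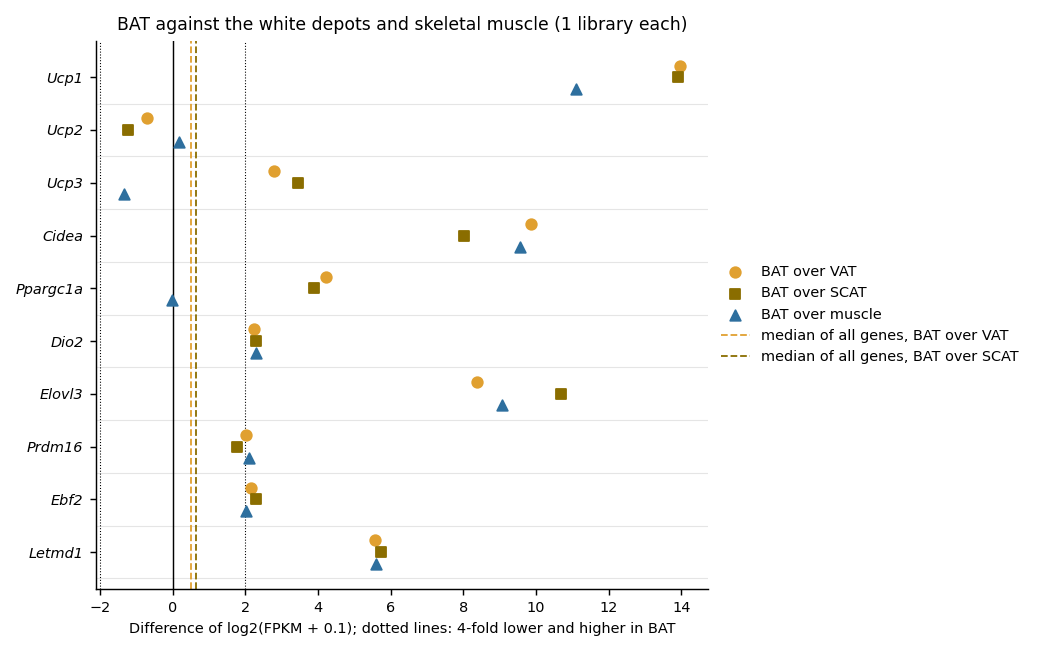
Difference of log2(FPKM + 0.1) between BAT and VAT, SCAT or muscle for each member, 1 library per tissue. Dotted lines mark 4-fold and dashed lines the medians of all genes (0.52 and 0.65). Ucp1, Cidea, Elovl3, Ebf2 and Letmd1 lie to the right of the 4-fold line in all 3 comparisons, Ucp2 lies at -0.71, -1.22 and 0.18, and Ucp3 is lower in BAT than in muscle. Dio2 lies past the line too, but it was below 1 FPKM in every tissue.

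Of the 10 members, 9 had at least 1 FPKM in BAT, 5 in SCAT and 4 in VAT, beside 50.3%, 49.99% and 52.3% of all protein-coding genes, so the counts in the white depots were near the share over all genes. Ucp2, Ucp3, Ebf2 and Letmd1 were the 4 in VAT, and Cidea joined them in SCAT. Of the 5 that could be compared between the depots, Ucp2 and Cidea were higher in SCAT, and none differed by 4-fold. The median of SCAT over VAT was -0.16 on the log2 scale among all 11964 genes compared. Shares over all genes were not computed for this pair of depots, so nothing is read from the counts of members. The depots were not pure fat by their transcripts. The 8 lymphocyte markers had a summed level of 282 FPKM in SCAT, 6 pancreatic acinar markers summed to 114 FPKM there, and 6 markers of the male reproductive tract summed to 2947 FPKM in VAT. The adipocyte markers were at a median of 42.5% of their BAT level in SCAT and 128% in VAT, whereas Ucp1 was at 0.00494% and 0.00471%. In bulk tissue, fewer cells of a type and less RNA per cell cannot be told apart.

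Several members share their place in the genome with other transcripts, and these loci were read because the table was counted over merged loci. Csrnp2, a protein-coding gene 405 bases from Letmd1 on the opposite strand, had 73.4 FPKM in BAT and 1.80 to 4.57 in the other tissues, with an r of 1.00 with Letmd1 over the 7 tissues. Pitx3, a homeobox gene on the strand opposite to Elovl3 with an annotated overlap of 10 bases, had 109 FPKM in BAT, 40.4 in liver and less than 1 FPKM elsewhere, which repeats the 2 high tissues of Elovl3 (r of 0.98). Gm10860, an antisense transcript within Ebf2, had 16.7 FPKM in BAT against 11.8 for Ebf2. Gm10603, antisense to Ucp3, had 26.3 FPKM in muscle and 10.01 in BAT, 41.0% and 39.7% of Ucp3. Dnajb13, which overlaps Ucp2 by 305 bases on the opposite strand, had 6.36 FPKM in SCAT and 0.262 in cortex, the high and low tissues of Ucp2. Since the strand setting of the counting is not given in the sources used here, reads of these pairs cannot be told apart, and the levels of both partners are uncertain to that extent.

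**Figure D4:**
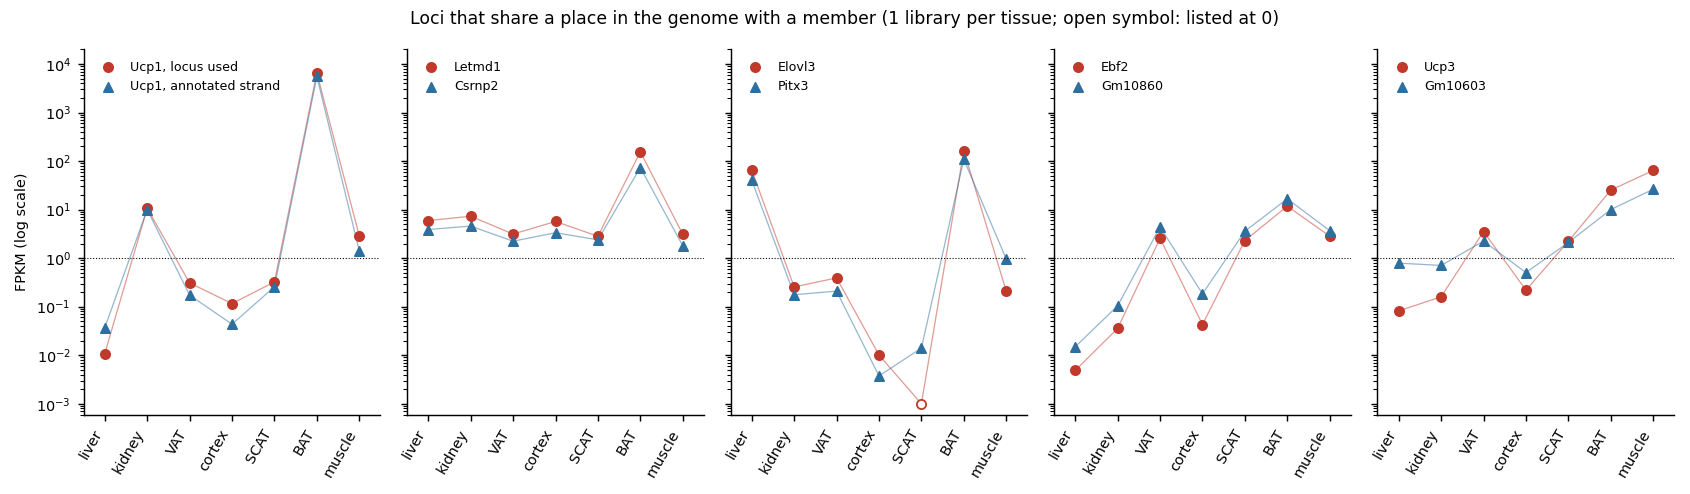
FPKM (log axis) by tissue for Ucp1 at its 2 loci and for 4 members (circles) with a transcript on the opposite strand of the same merged locus (triangles), 1 library per tissue. The open circle is listed at 0. The paired profiles have the same high tissues, for example BAT and liver for Elovl3 (165 and 65.6 FPKM) and Pitx3 (109 and 40.4 FPKM).

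The genes whose profiles over the 7 tissues were most like those of the uncoupling proteins were read from 6123 protein-coding genes that reached 10 FPKM and spanned at least 2 on the log2 scale. For Ucp1 these included Slc25a51 (r of 0.97), a mitochondrial NAD carrier with 72.8 FPKM in BAT, and Taldo1 (0.96), an enzyme of the pentose phosphate pathway with 509 FPKM in BAT. Both had BAT as the highest tissue and kidney as the next. Slc25a51 was read at a locus on the strand opposite to its annotation. For Ucp2 they were Myh9 (0.97), a non-muscle myosin, Clic1 (0.96), a chloride channel protein, and H2-Ab1 (0.96), a class II antigen-presenting chain with 95.2 FPKM in SCAT. For Ucp3 they were Phlda3, read on the strand opposite to its annotation, Polr3gl and Hk2 (each 0.99), of which Hk2 is the hexokinase of muscle, with 33.9 FPKM in muscle and 17.1 in BAT. Among the members, Cidea and Letmd1 had r of 0.90 and 0.89 with Ucp1, and Ebf2 had 0.90 with Ucp3. These are likenesses of 7 points that share their libraries, and no test was made of them.

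Around the members, 10 lists of pathway genes were counted in the same way. Their counts are to be read against the shares over all genes, which were 0.757% enriched in BAT, 15.1% highest there, 9.84% higher than in VAT, 15.6% higher than in SCAT, and 7.20% and 6.04% lower than in VAT and SCAT. Mitochondrial oxidation was the most uniform. Of its 28 genes in the table, 24 were highest in BAT, 26 were 4-fold higher in BAT than in VAT and 26 than in SCAT, with median differences of 4.004 and 4.335. The trifunctional protein subunit Hadhb, whose locus also carries the name Garem2, had 2952 FPKM in BAT, and the acyl-CoA dehydrogenases Acadvl and Acadl had 1031 and 639, each more than 4-fold above every other tissue. An exception was Cpt1a, the liver form of carnitine palmitoyltransferase, which had 4.37 FPKM in BAT and 110 in liver (log2 difference of -4.62).

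Fatty acid supply and storage had 22 of the 26 genes with a value in BAT highest there, with 14 of 26 higher than in VAT and 18 of 26 than in SCAT, and 7 of 26 enriched in BAT, beside 0.757% of all genes. Scd1, a desaturase of this list, had no usable value in the fat depots and was not judged. Fasn, the fatty acid synthase, had 427 FPKM in BAT and 16.1 in VAT, the next tissue. Elovl6, an elongase related to Elovl3, had 194 FPKM in BAT and 10.8 in cortex, and Acot11, an acyl-CoA thioesterase of brown fat, had 71.5 and 8.68 in kidney. In contrast with Elovl3, liver was not a high tissue of Elovl6 (10.2 FPKM). Slc27a2 was highest in liver (941 FPKM against 119 in BAT) and Plin4 in VAT (50.3 against 19.2).

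For adrenergic and cAMP input, which lies upstream of Ucp1, 10 of 15 genes were highest in BAT, beside 15.1% of all genes, and 5 of 13 were 4-fold higher than in VAT and 6 of 15 than in SCAT, beside 9.84% and 15.6%. Adcy3, an adenylyl cyclase, had 73.2 FPKM in BAT against 4.29 in cortex, and Prkar2b, a regulatory subunit of protein kinase A, had 373 against 60.2 in VAT. Pde3b, the phosphodiesterase that degrades cAMP, had 134 against 41.0 in VAT. Adrb3, the beta-3 adrenergic receptor of adipocytes, is named here although outside the naming rule and after its values were seen, and it had 25.4 FPKM in BAT, 11.3 in VAT and 3.26 in SCAT. Prkacb, a catalytic subunit of protein kinase A, was highest in cortex (110 FPKM against 19.6 in BAT).

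The other transcriptional regulators had their highest levels in different tissues. Of the 26 with at least 1 FPKM, 0 were enriched in BAT and 8 were highest there, beside 0.757% and 15.1% of all genes, and 5 of 23 were 4-fold higher than in VAT and 5 of 22 than in SCAT, beside 9.84% and 15.6%, so that the share against SCAT was not far from that over all genes. Pparg, the master regulator of adipocytes, had 158 FPKM in BAT and 49.8 in VAT, and Ppargc1b, the relative of Ppargc1a, had 3.30 in BAT and 1.38 in muscle. Gabpa had 29.8 FPKM in BAT and 17.7 in muscle, while Rxra was highest in liver (76.8) and Bmp7 in kidney (6.05).

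Of the other brown adipocyte markers, 9 of 21 were highest in BAT and Otop1, a proton channel, was enriched there, with 85.5 FPKM against 0.353 in SCAT. In this list, 9 of 16 were 4-fold higher and 2 lower in BAT than in VAT, and 11 of 16 higher and 1 lower than in SCAT. Nrg4, a secreted factor of brown fat, had 70.7 FPKM in BAT and 24.8 in VAT, and Clstn3 had 65.2 in BAT and 25.6 in cortex. Kng1 and Eva1a were highest in liver (1066 and 17.5 FPKM). Kng1, 1 of the 2 lower than in VAT, had 7.67 FPKM in VAT, where the hepatocyte markers summed to 357 FPKM, and their part in this was not tested. Of the beige adipocyte markers, 1 of 10 was highest in BAT (Slc27a1, 66.3 FPKM), beside 15.1% of all genes, 1 of 7 was higher than in VAT, beside 9.84%, and 2 were lower, beside 7.20%, while 0 of 8 were higher and 2 lower than in SCAT, beside 15.6% and 6.04%. Tbx1 and Tbx15 were highest in muscle (3.33 and 55.9 FPKM), and Shox2 and Sp100 in SCAT (1.18 and 46.6). The lymphocyte markers were also high in SCAT, at a sum of 282 FPKM against 7.15 in BAT, and their part in the SCAT levels of this list was not tested.

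The list of ATP-consuming cycles, which make heat without UCP1, also holds Gpd1 and Gpd2 of the glycerol phosphate shuttle, which is not itself such a cycle. In this list 2 of 17 genes were highest in BAT, near the 15.1% of all genes. They were Gpd1 and Gpd2, with 865 and 187 FPKM there. Of 16 genes, 8 were 4-fold higher in BAT than in VAT and 9 than in SCAT, beside 9.84% and 15.6%. Sln, the regulator of the muscle calcium pump, had 12.3 FPKM in muscle and 4.80 in BAT, Ckmt1 was highest in cortex (44.3) and Gatm in kidney (101.8). The list holds muscle fibre genes such as Ckm, and the part of the fibre transcripts in the BAT library was not tested.

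The other inner-membrane carriers with proton leak, a group that includes the adenine nucleotide translocases, had 0 of 7 genes highest in BAT, beside 15.1% of all genes, and 2 of 6 higher than in either white depot, beside 9.84% for VAT and 15.6% for SCAT. Slc25a4 had 1196 FPKM in muscle and 118 in BAT, and Slc25a5 had 193 in kidney and 119 in BAT. Slc25a11 was highest in muscle (359), Slc25a14 in cortex (10.4) and Slc25a10 in kidney (109). Of these relatives of the uncoupling proteins, 0 of 7 were enriched in BAT, which is near the 0.757% of all genes.

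Among paralogs of the members, 6 of 17 were highest in BAT and Elovl6 was enriched there, and 5 of 13 were 4-fold higher and 1 lower in BAT than in VAT, with 4 of 13 higher than in SCAT. Ebf3, a relative of Ebf2, had 10.5 FPKM in BAT and 3.53 in muscle, and Letm1, a relative of Letmd1, had 28.2 in BAT and 7.31 in muscle. Dio1 and Elovl2 were liver genes (32.9 and 107 FPKM). Of the white adipocyte markers, 6 of 12 were 4-fold lower in BAT than in VAT (Lep, Retn, Nnat, Agt, Trim14 and Wt1) and 1 was higher, while against SCAT 3 of 9 were lower and 2 higher. Agt and Trim14 were highest in liver (58.3 and 10.1 FPKM), and the part of the hepatocyte transcripts in their VAT levels was not tested. Leptin (Lep) had 51.6 FPKM in VAT and 2.02 in BAT, but Plin1 (413), Fabp4 (9367) and Cidec (746) were highest in BAT. Of all list genes together, 72 of 149 were 4-fold higher and 11 lower in BAT than in VAT, and 79 of 148 higher and 6 lower than in SCAT. With rescaled libraries these counts were 58 of 151 and 13, beside 5.24% higher and 11.3% lower of all genes, and 66 of 152 and 13, beside 7.496% and 10.9%.

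**Figure D5:**
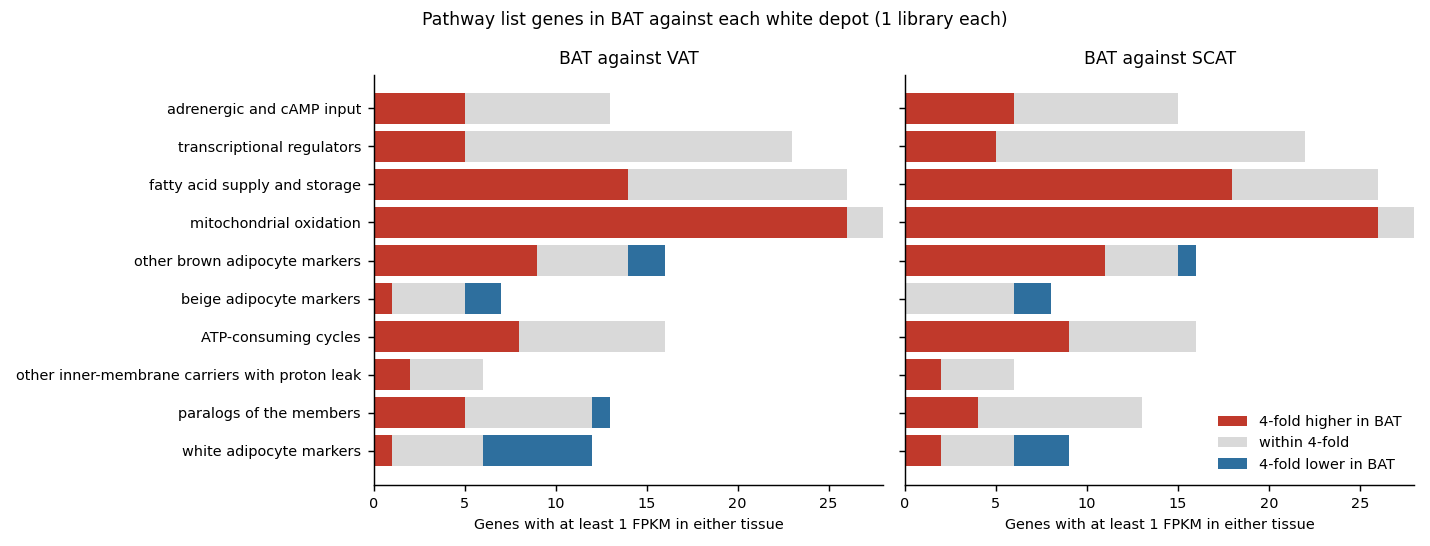
Number of genes of each pathway list that were 4-fold higher (red), within 4-fold (grey) or 4-fold lower (blue) in BAT than in VAT or SCAT, among genes with at least 1 FPKM in either tissue, 1 library each. Mitochondrial oxidation is red for 26 of 28 genes in both panels, and white adipocyte markers are blue for 6 of 12 genes against VAT.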

How the data were processed

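Total RNA of 7 mouse tissues was depleted of ribosomal RNA and sequenced in paired ends after a directional library preparation, with 1 library per tissue. According to the study's methods, the authors trimmed reads with flexbar, removed ribosomal reads with Bowtie2 2.2.9, aligned to GRCm38 (mm10) with STAR 2.6.0c, and assembled, merged and quantified transcripts with Cufflinks 2.2.1, cuffmerge and Cuffdiff. The authors deposited FPKM values for 94339 loci in 21 pairwise comparisons, and each locus has 1 value per tissue over all of its comparisons. The deposited fold changes, test statistics, p-values and q-values of these comparisons were not used. The library type setting of the counting is not given in the sources used here. No fragment counts are listed, so depth and counting error are unknown and no interval was computed.

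Names were split at commas and matched to GENCODE vM21 (GRCm38), which gave 21341 protein-coding names. A name with several loci was given its most abundant locus, by maximum FPKM. The 151 failed loci were left out, and zeros flagged LOWDATA (83 loci) were set to missing, which touched no member. Strand was read from the order of loci and was the annotated strand for 99.9% of 34945 names with 1 locus. Differences were taken on log2(FPKM + 0.1). A call needed at least 1 FPKM and a difference of 2. The rules were tested on simulated data, in Python 3.11.15 with pandas 2.3.3 and NumPy 2.4.6. Named are all members, the 3 profiles most like each uncoupling protein, from each list the 3 highest and 2 lowest for BAT over the highest other tissue, genes sharing a locus with a member, and markers that move with a result. A few genes that this rule names are not reported here. Members, lists and rules were chosen with earlier results of these data known. Alternatives covered the pseudocount, scaling, minimum, fold, choice of locus, failed and LOWDATA loci and left-out libraries. Protein sequences were planned and not used here.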

Additional observations from a re-analysis of the deposited data

Results flagged for a closer look

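Loci beside the members were not used in the counts of members. Of the 35 that share a merged locus with a member, 4 passed the BAT rule (4 loci of 3 genes). These 4 loci stand above every other tissue in data outside the main measurement. Among the 19122 gene names that reached 1 FPKM somewhere, 0.779% passed the rule. The 35 loci had no such limit, some were not detected in any tissue, and a gene could count more than once. The share of names is therefore no like-for-like measure for them, and nothing is read from the gap. Csrnp2, 405 bases from Letmd1 on the opposite strand, had 73.4 FPKM in BAT. Impa2, an inositol monophosphatase gene 21131 bases from Cidea on the same strand, had 14.5 FPKM in BAT and at most 2.18 elsewhere. B430212C06Rik, a non-coding transcript that overlaps Cidea by 500 bases, had 9.26 FPKM in BAT on its annotated minus strand and 5.10 FPKM at a locus read as the plus strand. The part that reads of Letmd1 and Cidea have in these levels was not tested.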

How the results depend on the processing

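No paired analysis was possible because a tissue never had more than 1 library. The counts of genes enriched in BAT were recomputed under the pseudocounts, scaling, minimum, folds, locus choices, failed and LOWDATA loci and left-out libraries. The counts against VAT, SCAT and muscle had no left-out library, the count highest in BAT no pseudocount or fold, and the Ucp1 share only the scaling and the locus settings. Of these 85 values, 81 stayed within 1.5 times. Members enriched in BAT numbered 3 to 5: Ucp1, Cidea and Letmd1 kept the call under all 17 alternatives, Elovl3 passed with a 2-fold rule or without liver, and Ucp3 without muscle. Not all of the 17 could remove a call. The left-out libraries, the 2-fold rule and the setting without a minimum can only keep or add one. Keeping failed loci or LOWDATA zeros changed no member's call. Members highest in BAT numbered 5 to 7, and those higher in BAT than in muscle 4 to 7. With an 8-fold rule, 5 members in place of 8 were higher in BAT than in VAT. For the counts highest in BAT, over muscle and over VAT, the share over all genes was not recomputed with a changed fold, pseudocount, minimum, locus or left-out library. List genes enriched in BAT numbered 16 of 168, beside 0.757% of all genes. They were 41 with a 2-fold rule, 6 with an 8-fold rule and 32 without the skeletal muscle library, where the share over all genes moved too, to 2.75%, 0.261% and 1.89%. Of 110 recomputed log2 ratios of BAT over the highest other tissue, 103 moved by less than 1.5 times and none that were past the limit at first changed sign. Many of these ratios could not move, so the tally is no measure of stability. A left-out library changes a ratio only if it was the highest other tissue, and the locus settings only matter for members with several loci. Without kidney, Ucp1 was 11.11 above muscle and Prdm16 was 1.06 above cortex. Without liver, Elovl3 was 8.39 above VAT, and without muscle, Ucp3 went from -1.34 against muscle to 2.80 above VAT, a change of sign that ended past the limit. Without cortex, Dio2 was 2.25 above VAT. With rescaled libraries, Cidea was at 7.23 and Ucp2 at -2.02. The libraries of liver, kidney and cortex were left out as alternatives chosen after seeing the data.

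What limits all values is 1 library per tissue, of unknown depth and an unstated number of animals. A tissue's level includes every cell type in the piece, and lymphocyte, pancreatic, reproductive tract, hepatocyte and muscle fibre transcripts were present in adipose libraries. Strand is not written in the table and was only read from the order of its rows, and Ucp1 in particular is listed on both strands. Its FPKM at the locus used and on the annotated strand was near equal in BAT (6552 and 5529) and kidney (10.6 and 10.03). The gap was wider in other tissues, such as muscle (2.86 and 1.41) and cortex (0.116 and 0.0435).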
